A study of Rattus norvegicus with 12 samples.

Results

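The genes described here belong to the antioxidant programme controlled by the transcription factor NRF2, together with the enzymes that make and recycle glutathione. There are 10 of them: Gclc, Gclm, Gsr, Me1, Srxn1, Txnrd1, Nqo1, Osgin1, Nfe2l2 and Keap1. They were taken by the gene name that the array files give each probe, and 12 probes carried one of these names, 1 for each gene and a further probe for Me1 and for Txnrd1. The array held 30367 probes, of which 21071 probes of 18517 genes passed the filter on dim signals, and all 12 probes passed it. The members were picked with their values in these samples already known, so their differences between groups are given as a description, with the standard error (SE) or 95% interval of the fit and with no p value.

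The study used female F344 rats 10 weeks old, and 4 rats stood in each of 3 groups. IRI day 7 rats had a unilateral ischemia reperfusion injury of the left kidney, in which blood flow is stopped and restored, and were killed on day 7. IRI day 3 rats had the same injury and were killed on day 3, and sham rats had a sham operation and were killed on day 7, so no sham kidney matches day 3 in time. RNA of the whole left kidney of each rat was measured on an Agilent 1-colour array, and the state of the right kidney and the length of the ischemia are not given in the sources used here. In RNA of a whole kidney, fewer cells of a type and less RNA per cell cannot be told apart.

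NRF2, encoded by Nfe2l2, is held in the cytoplasm by KEAP1, which presents it for breakdown. Oxidants and electrophiles modify KEAP1, NRF2 then builds up, pairs with a small MAF protein and binds antioxidant response elements near its target genes, so its activity is set largely at the level of the protein and not of its mRNA. Its targets include both subunits of the enzyme that starts glutathione synthesis, enzymes that supply NADPH, and enzymes that repair oxidised thiols. The proximal tubule, the main reabsorbing segment of the nephron, is a site of intense glutathione turnover and of ischemic injury.

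The promoter sequences that bear on this programme are shown for Gclm, Srxn1, Me1 and Txnrd1, since in each a motif of the response element was found by its letters. They are from RefSeq on the rat build GRCr8, on the strand of the gene, and cover the 250 bases before the start of the transcript, or for Srxn1 as far as the end of the match. The letters searched were TGACNNNGC, the core of the element, and TGANTCAGC, a form that also takes in sites of MAF and AP-1 factors, both on either strand and within 300 bases, 250 before and 50 after the start. The match is in capitals.
Gclm, chr2:213031885-213032134, + strand: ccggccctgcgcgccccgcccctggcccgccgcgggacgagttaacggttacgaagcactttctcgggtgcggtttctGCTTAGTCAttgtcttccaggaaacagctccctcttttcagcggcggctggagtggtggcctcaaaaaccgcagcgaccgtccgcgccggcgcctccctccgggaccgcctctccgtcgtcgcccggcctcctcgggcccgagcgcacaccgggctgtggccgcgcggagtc
Srxn1, chr3:161064562-161064815, + strand: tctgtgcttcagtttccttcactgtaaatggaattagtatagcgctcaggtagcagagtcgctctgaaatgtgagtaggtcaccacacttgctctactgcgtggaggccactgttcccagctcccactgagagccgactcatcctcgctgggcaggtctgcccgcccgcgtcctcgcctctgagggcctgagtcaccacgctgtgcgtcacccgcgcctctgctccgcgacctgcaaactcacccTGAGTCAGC
Me1, chr8:96540245-96540494, - strand: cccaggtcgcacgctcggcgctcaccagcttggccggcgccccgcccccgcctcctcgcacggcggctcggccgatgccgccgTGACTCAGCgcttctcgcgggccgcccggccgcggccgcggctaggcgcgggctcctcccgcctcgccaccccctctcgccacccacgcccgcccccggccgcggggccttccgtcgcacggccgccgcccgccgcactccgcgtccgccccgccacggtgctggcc
Txnrd1, chr7:22755905-22756154, - strand: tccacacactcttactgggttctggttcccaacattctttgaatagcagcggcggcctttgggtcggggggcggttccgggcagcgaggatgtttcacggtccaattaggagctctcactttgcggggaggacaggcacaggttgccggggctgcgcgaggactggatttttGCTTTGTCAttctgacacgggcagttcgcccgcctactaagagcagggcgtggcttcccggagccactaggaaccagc
Counted from the start of the transcript, the Gclm match runs from -172 to -164 and that of Txnrd1 from -78 to -70, both with the motif on the reverse strand. In Srxn1 the match runs over the start itself, from -5 to 3. The Me1 match, from -167 to -159, fits both motifs with the same letters. Of 10 promoters listed for 9 of the 10 members, 4 held TGACNNNGC, among them that of Nfe2l2, and 2 held TGANTCAGC, against 12.1% and 1.11% of 33469 promoters of the same length. Gclc, Osgin1, Nqo1, Keap1 and the other listed start of Txnrd1 had neither motif in this window, and the letters of a short window neither show nor deny binding of a factor.

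Before scaling, the upper quartile (75th percentile) of the signals on an array was 502.2 ± 60.9 intensity units at IRI day 7, 714.1 ± 34.5 at IRI day 3 and 328.3 ± 72.6 in sham (SD, n = 4 each). The ratio to sham was 1.53 at day 7 and 2.175 at day 3, and both had p = 0.0286 in an exact permutation test (two-sided), which is the minimum for groups of 4. Values below are log2 signals relative to this percentile of their own array, so a value of 0 means a signal equal to it. On this scale the median difference over all tested probes was -0.062 for day 7 minus sham and -0.11 for day 3 minus sham, and it was 0.175 and 0.17 under total signal scaling, which sets the summed signal of all arrays equal. The arrays lay on 3 slides, each holding all 3 groups, and their number limits the precision. All 15 proximal tubule markers and all 10 collecting duct markers were above background on all 12 arrays. Of 6 genes of the neighbouring adrenal cortex, 3 passed the filter on dim signals and 1 of these was above background on all arrays. Among the rest, Hsd3b1 was above it on 2 arrays, and Cyp11b1 and Cyp11b2 on none.

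Both subunits of glutamate-cysteine ligase, the enzyme of the first and rate-limiting step of glutathione synthesis, stood below sham on day 7, but on day 3 the catalytic subunit gene alone did so without overlap. Gclc, the catalytic subunit, was lower at both times. Gclm, the modifier subunit that raises the efficiency of the enzyme, overlapped with sham on day 3 and read lower on day 7, near background.

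The Gclc probe (rn4, chr8:82762574-82762633, + strand) read -0.58, -0.04, -1.47 and -1.25 at IRI day 7, -1.31, -1.12, -0.35 and -1.21 at IRI day 3, and 2.41, 2.48, 1.5 and 2.44 in sham. All injured kidneys lay below all sham kidneys, and the injured groups overlapped. The difference was -3.04 ± 0.34 SE for day 7 minus sham, an 8.25-fold lower signal, and -3.21 ± 0.34 SE for day 3 minus sham, a 9.22-fold lower signal. Day 7 minus day 3 was 0.16, with a 95% interval of -0.58 to 0.91. By its difference on day 7 Gclc was the 25th lowest of 21071 probes. Sham replicate 3 stood below the other sham arrays, and without it the differences were -3.28 on day 7 and -3.44 on day 3.

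The Gclm probe (rn4, chr2:218915215-218915274, + strand) read -3.33, -3.63, -4.46 and -5.65 at IRI day 7, -2.07, -1.67, -1.56 and -1.88 at IRI day 3, and -1.36, -0.59, -2.34 and -1.19 in sham. The lower pair of day 7 readings was not well above background, so 2 of 4 day 7 arrays measured this gene. All day 7 kidneys lay below all others, and the day 3 kidneys lay within the range of sham. Day 7 minus sham was -2.90 ± 0.47 SE and day 7 minus day 3 was -2.47 ± 0.47 SE. Both use all 4 day 7 readings, with the 2 that were not well above background included. Under another background correction, named normexp, these differences were -1.0 and -0.51 and neither passed. Both passed under normexp when spots under their local background were left out. The size of the day 7 difference and its call therefore depend on how background is treated. Day 3 minus sham was -0.43, with a 95% interval of -1.44 to 0.59. Within the 3 slides day 7 minus sham was -2.36, -3.86 and -2.16, while day 3 minus sham was -0.29, -1.38 and 0.67 and so had no common sign.

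**Figure D1:**
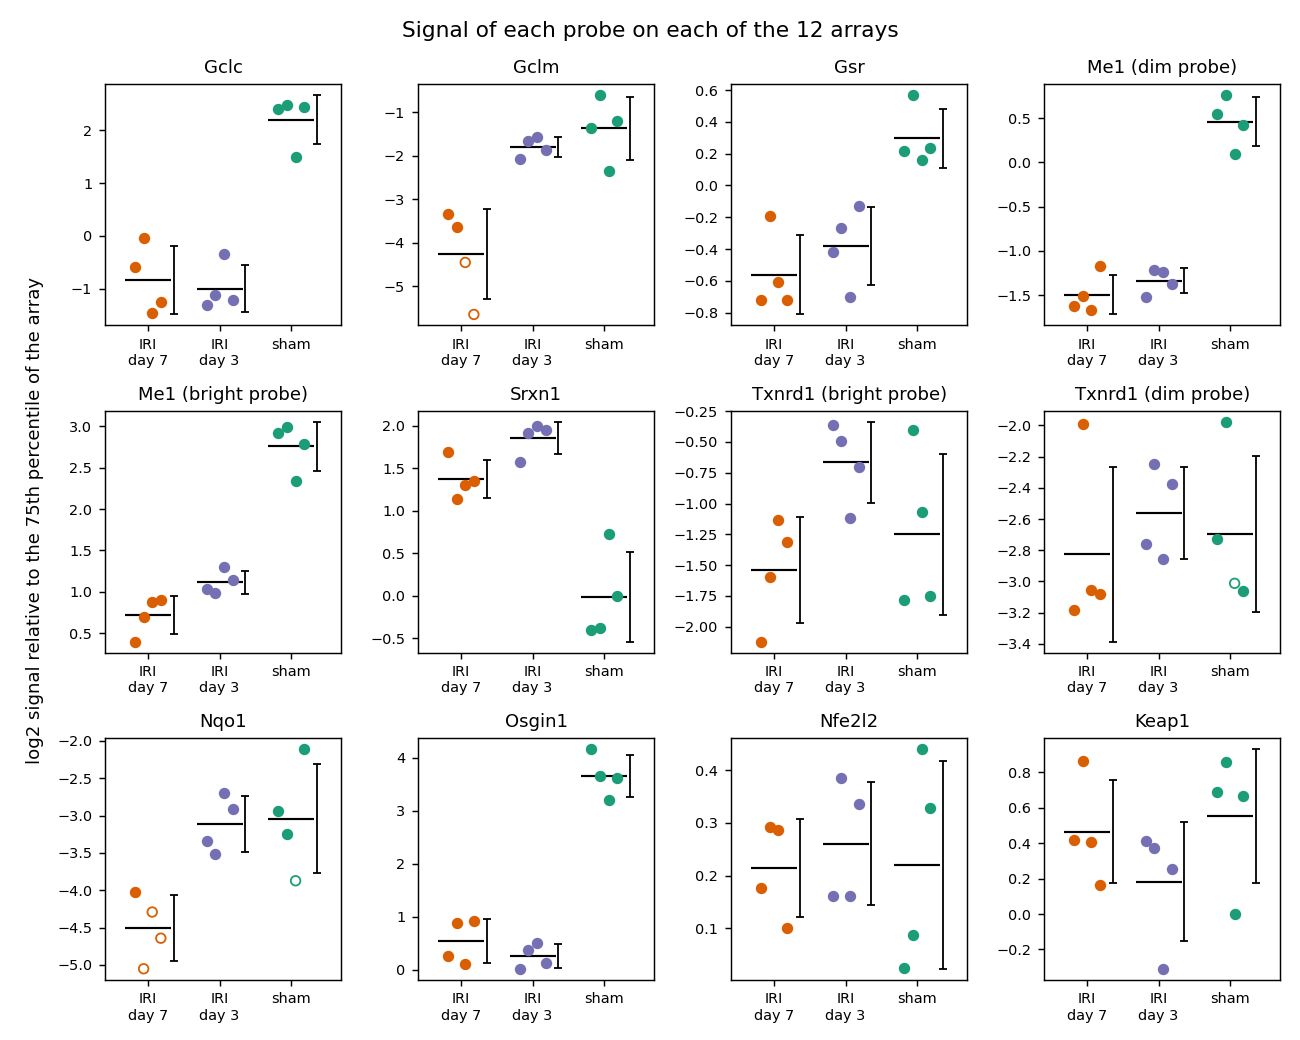
Log2 signal relative to the 75th percentile of its array (vertical axis, own range in each panel) for each of the 12 probes in the 4 kidneys of each group. Points are arrays, open points are signals not well above background, and lines are group means with the SD; Gclc and Osgin1 are low in both injured groups, Gclm only at IRI day 7, and Nfe2l2 overlaps in all groups.

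Within an array, the difference between both subunit probes does not depend on how arrays are scaled. Relative to the sham mean, Gclc minus Gclm was -0.14 on average at IRI day 7 (-0.82 to 0.82), -2.78 at IRI day 3 (-3.03 to -2.36) and between -0.51 and 0.26 in sham. The changes of the subunit signals from sham were therefore unequal on day 3, when this value lay lower in all 4 kidneys than in every other kidney. On day 7 the value overlapped with sham, and 2 of the 4 day 7 Gclm readings were not well above background. This day 7 value depends on the background correction: with normexp the mean difference was -0.89 on day 7 and -1.57 on day 3. The values of Gss, which encodes the next enzyme, glutathione synthetase, are given below with the other genes of the pathway.

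Gsr encodes glutathione reductase, which regenerates reduced glutathione with NADPH. Its probe (rn4, chr16:62257899-62258792, - strand, 10 spots averaged, with a span longer than a probe) read -0.72, -0.19, -0.61 and -0.72 at IRI day 7, -0.42, -0.27, -0.70 and -0.13 at IRI day 3, and 0.22, 0.57, 0.16 and 0.24 in sham. The injured kidneys again lay below all sham kidneys, by a smaller amount than for Gclc. The differences from sham were -0.86 ± 0.18 SE on day 7 and -0.68 ± 0.18 SE on day 3. With total signal scaling the day 3 difference was -0.40 and no longer passed.

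Me1 encodes the cytosolic malic enzyme, which makes NADPH. Its brighter probe (rn4, chr8:91841235-91841294, - strand) read 0.40, 0.70, 0.88 and 0.90 at IRI day 7, 1.03, 0.99, 1.29 and 1.15 at IRI day 3, and 2.92, 2.99, 2.34 and 2.79 in sham. Here the groups formed 3 separate ranges, lowest on day 7. Day 7 minus sham was -2.04 ± 0.18 SE, a 4.11-fold lower signal, day 3 minus sham was -1.64 ± 0.18 SE, and day 7 minus day 3 was -0.40 ± 0.18 SE. The dimmer probe (rn4, chr8:91839922-91839981, - strand) ranged from -1.67 to -1.17 at IRI day 7, from -1.52 to -1.22 at IRI day 3 and from 0.10 to 0.77 in sham. It gave -1.95 ± 0.17 SE on day 7 and -1.80 ± 0.17 SE on day 3 against sham, close to the brighter probe, but its injured groups overlapped.

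Srxn1 was the only member whose signal was higher than sham without overlap. It encodes sulfiredoxin, which restores peroxiredoxins after overoxidation. The probe (rn4, chr3:142462543-142462602, + strand) read 1.69, 1.14, 1.31 and 1.35 at IRI day 7, 1.58, 1.91, 1.99 and 1.95 at IRI day 3, and -0.40, -0.38, 0.72 and 0.00064 in sham. All 8 injured kidneys lay above all sham kidneys. The difference from sham was 1.39 ± 0.24 SE on day 7, a 2.62-fold higher signal, and 1.87 ± 0.24 SE on day 3, a 3.66-fold higher signal. Day 7 minus day 3 was -0.48, with a 95% interval of -1.0 to 0.034.

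Txnrd1 encodes the cytosolic thioredoxin reductase, which keeps thioredoxin reduced. Its brighter probe (rn4, chr7:23055528-23055561, - strand) read -2.12, -1.60, -1.13 and -1.31 at IRI day 7, -0.36, -0.49, -1.12 and -0.70 at IRI day 3, and -1.78, -0.40, -1.07 and -1.75 in sham. Both injured groups overlapped with sham, whose own spread was wide, and the day 7 kidneys lay just below the day 3 kidneys. The differences were -0.29 ± 0.32 SE for day 7 minus sham, 0.58 ± 0.32 SE for day 3 minus sham and -0.87 ± 0.32 SE for day 7 minus day 3. The last of these did not pass an adjusted p of 0.05 in the fit of all arrays but did in some alternatives, such as with the slide as a block (-0.77). Without sham replicate 2, day 3 minus sham was 0.87, and it was 0.86 under total signal scaling. Both of these values passed, while day 3 minus sham did not pass in the fit of all arrays. The dimmer probe (rn4, chr7:23065196-23065255, - strand) ranged from -3.18 to -1.99 at IRI day 7, from -2.86 to -2.25 at IRI day 3 and from -3.06 to -1.98 in sham, and all 3 groups overlapped. Relative to the sham mean of the same difference, Srxn1 minus Txnrd1 within an array was 1.68 at IRI day 7 (1.2 to 2.57) and 1.29 at IRI day 3 (0.70 to 1.87), while sham ran from -1.22 to 0.55.

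Osgin1 and Gclc were the members with the lowest differences from sham on day 3. On day 7 the order of Osgin1, Gclc and Gclm changed when single arrays were left out. Osgin1 encodes an inhibitor of growth that oxidative stress induces. The probe (rn4, chr19:49689658-49689717, + strand) read 0.26, 0.88, 0.12 and 0.92 at IRI day 7, 0.02, 0.37, 0.51 and 0.13 at IRI day 3, and 4.17, 3.66, 3.20 and 3.63 in sham. The injured kidneys lay more than 2 log2 units below the lowest sham kidney. The difference from sham was -3.12 ± 0.24 SE on day 7, an 8.68-fold lower signal, and -3.41 ± 0.24 SE on day 3, a 10.6-fold lower signal. By these differences it was the 22nd lowest of 21071 probes on day 7 and the 145th lowest on day 3.

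Nqo1 encodes a quinone reductase that is widely used as a readout of NRF2. Its signal was dim throughout. The probe (rn4, chr19:37251727-37251786, - strand) read -4.03, -5.05, -4.29 and -4.64 at IRI day 7, -3.34, -3.51, -2.70 and -2.92 at IRI day 3, and -2.94, -3.25, -3.87 and -2.11 in sham. It was well above background on 1 of 4 day 7 arrays, on all day 3 arrays and on 3 sham arrays. It thus passed the filter on dim signals only through IRI day 3. The day 7 kidneys lay below all others, with -1.46 ± 0.35 SE against sham and -1.39 ± 0.35 SE against day 3. Both include the day 7 readings that were not well above background, so their size is uncertain. Under normexp day 7 minus sham was -0.66 and day 7 minus day 3 was 0.14, and neither passed. With spots under their local background left out, normexp gave -0.19 for day 7 minus day 3, which did not pass, while day 7 minus sham passed. Day 3 minus sham was -0.08, with a 95% interval of -0.83 to 0.68.

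The genes of the switch itself overlapped in all 3 groups. The Nfe2l2 probe (rn4, chr3:58367137-58367196, - strand) read 0.18, 0.29, 0.29 and 0.10 at IRI day 7, 0.16, 0.39, 0.16 and 0.34 at IRI day 3, and 0.02, 0.09, 0.44 and 0.33 in sham. Day 7 minus sham was -0.0061, with a 95% interval of -0.30 to 0.29, and day 3 minus sham was 0.04, with an interval of -0.26 to 0.34. The Keap1 probe (rn4, chr8:20260496-20260555, - strand) read 0.42, 0.86, 0.41 and 0.16 at IRI day 7, 0.41, 0.37, -0.31 and 0.25 at IRI day 3, and 0.69, 0.86, -0.0017 and 0.67 in sham. The differences were -0.09 ± 0.23 SE for day 7 minus sham and -0.37 ± 0.23 SE for day 3 minus sham. Sham replicate 3 was again the low sham array, and without it day 3 minus sham was -0.55. This value passed, while day 3 minus sham of Keap1 did not pass in the fit of all arrays. Without sham replicate 1, 2 or 4 the difference was -0.32, -0.27 and -0.33 and did not pass. The size and the call of the day 3 difference of Keap1 therefore depend on sham replicate 3.

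**Figure D2:**
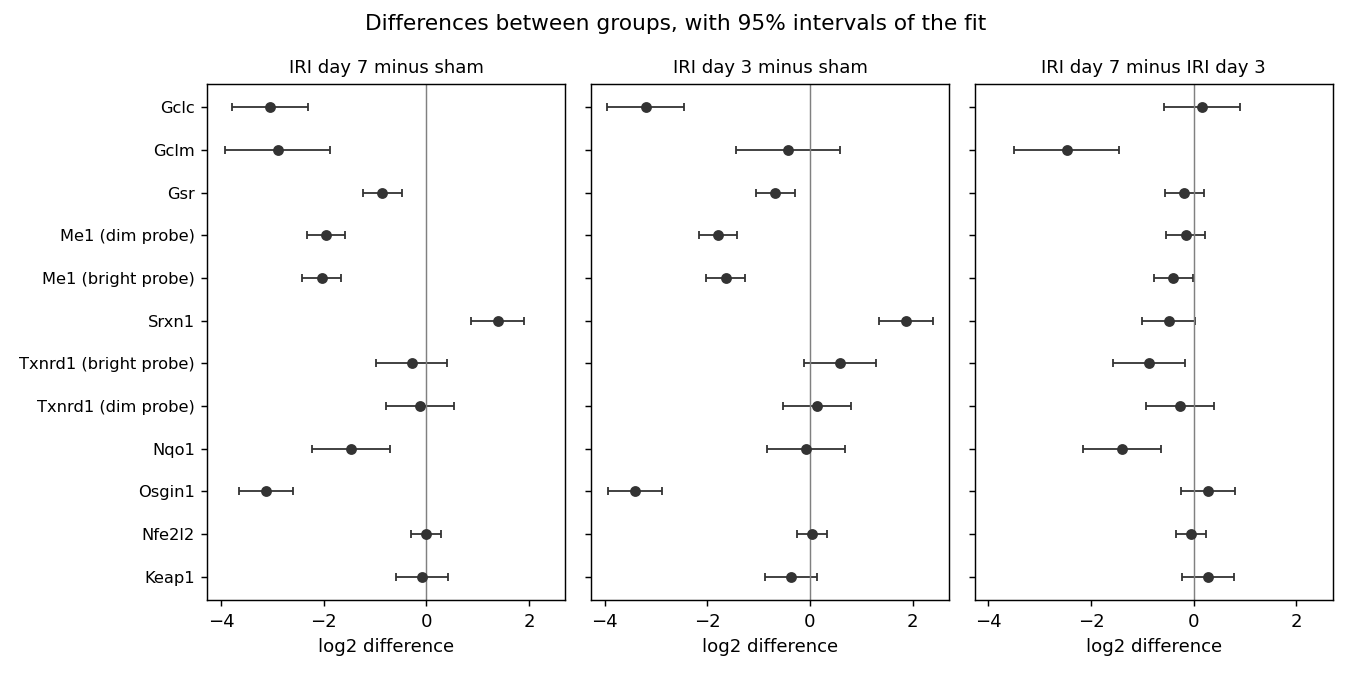
Log2 difference between group means (horizontal axis) for each of the 12 probes, with 95% intervals of the fit, for IRI day 7 minus sham, IRI day 3 minus sham and IRI day 7 minus IRI day 3. Gclc, Osgin1, Me1 and Gsr lie left of 0 and Srxn1 right of 0 at both times, each with its whole interval, while the whole intervals of Gclm and Nqo1 lie left of 0 only in the panels of day 7.

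Counted by the limma fit over all probes at an adjusted p of 0.05, with the brightest probe for each gene, 1 of the 10 members was higher and 6 were lower on day 7 than in sham, where 18.5% of all tested genes passed. On day 3, 1 was higher and 4 were lower than in sham, where 57.1% of all tested genes passed. Between the times 2 were lower on day 7 than on day 3 and none was higher, where 31.1% of all tested genes passed. These 2 were Gclm and Nqo1. The Nqo1 probe passed the filter on dim signals only through IRI day 3, so its call between the times is not independent of the filter. The members were picked from these same arrays, so nothing is read from these counts. The probe ranges did not overlap in 8 of 12 probes for day 7 against sham, 6 for day 3 against sham and 4 for day 7 against day 3, where this held for 21.3%, 50.9% and 35.6% of all tested probes. When background was corrected with normexp, day 7 differences from sham kept their direction but no longer passed for Gclm (-1.0), Nqo1 (-0.66), Srxn1 (1.07) and Gsr (-0.51). The same held for both Me1 probes (-1.38 for the brighter and -1.05 for the dimmer). It also held for Gsr on day 3 (-0.41) and Gclm between day 7 and day 3 (-0.51). Gclc (-1.89 on day 7, -2.06 on day 3) and Osgin1 (-2.43 and -2.60) still passed. With spots under their local background left out, normexp lost 1 call of a member, Nqo1 between day 7 and day 3 (-0.19).

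Members resembled each other in pattern only in part. After each probe was centred on its sham mean, the root mean square difference over the 12 arrays was 0.40 log2 units between Gclc and Osgin1, the closest pair, and 0.41 between Nfe2l2 and Keap1. It was 4.04 between Osgin1 and Srxn1, the farthest pair, and 1.66 between Gclc and Gclm. Over all named genes, those nearest to Gclc were Osgin1 (0.40), Hif3a (0.53), which encodes a subunit of the hypoxia-inducible factors, and C14h2orf73 (0.53), against a median of 2.58. Those nearest to Osgin1 were C14h2orf73 (0.38), Gclc (0.40) and Ppp1r16b (0.52), against a median of 2.67. Those nearest to Srxn1 were Nmi (0.21), which encodes a partner of STAT and MYC proteins, Ifgga2l1 (0.25) and Kazald1 (0.30), against a median of 1.49. These distances share the arrays and their scaling and describe 12 arrays only.

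**Figure D3:**
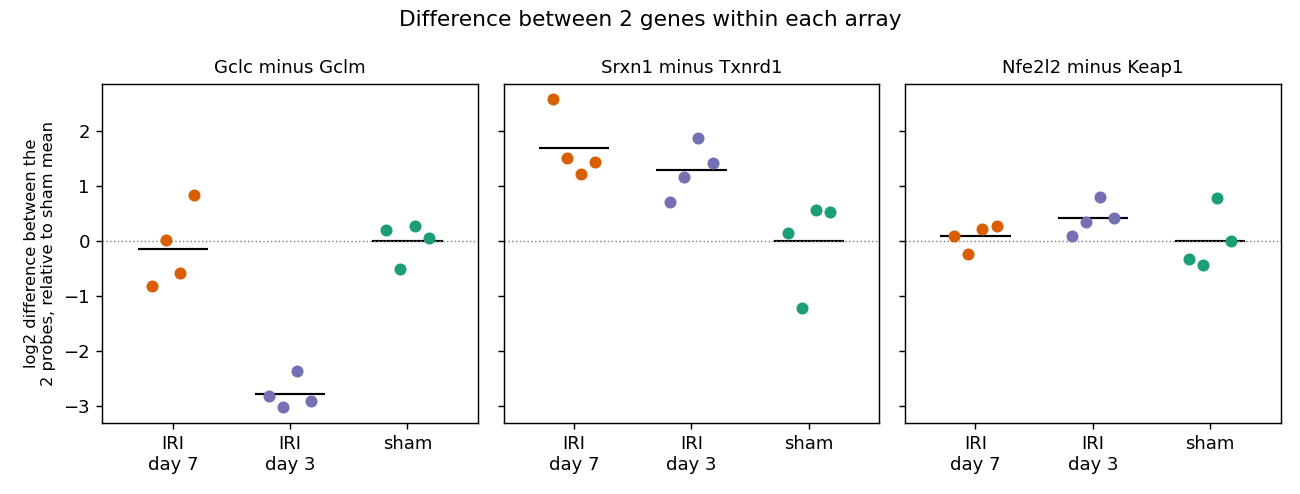
Log2 difference between a pair of probes within each array (vertical axis), relative to the sham mean of that difference, with a point for each of the 4 kidneys of a group and a line at the group mean. Gclc minus Gclm is near -2.78 at IRI day 3 and near 0 at IRI day 7, where 2 of the 4 Gclm signals were not well above background and normexp gave -0.89, Srxn1 minus Txnrd1 is above sham at both times, and Nfe2l2 minus Keap1 overlaps in all groups.

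The wider pathway was read from 5 lists of other genes, by the brightest probe of each: NRF2 target genes that are no members, glutathione synthesis, use and breakdown, the thioredoxin and peroxiredoxin system, NADPH supply, and regulators and partners of NRF2. Of their 137 tested genes, 11 rose and 33 fell on day 7 against sham, where 8.05% of all tested genes rose and 10.5% fell. On day 3, 32 rose and 55 fell against sham, where 24.1% of all tested genes rose and 33% fell. Between the times, 28 were higher and 23 lower on day 7 than on day 3, where 17.9% of all tested genes were higher and 13.3% lower. The median difference of the 137 genes was -0.27 on day 7 and -0.20 on day 3 against sham, beside -0.067 and -0.13 over all tested genes. Rises made up 25% of the 44 genes that passed on day 7 and 36.8% of the 87 that passed on day 3, and under total signal scaling 43.8% and 50%. With normexp background correction 0 passed in limma on day 7, with 34 at an unadjusted p under 0.05, and 36 on day 3. The count between the times, 51, was 3 with it and 32 without IRI day 3 replicate 2 or 4. With spots under their local background left out, normexp gave 43 on day 7, 92 on day 3 and 61 between the times. In the main fit 28 genes passed as lower at both times and 8 as higher at both. The share of all tested genes that did so is not given here, so nothing is read from these counts. Adjusted p values here and below are from limma over all tested probes, and both contrasts with sham use the same 4 sham arrays.

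Among 41 other NRF2 target genes, 3 rose and 13 fell on day 7, and 10 rose and 19 fell on day 3, against sham. Several of the genes that fell encode glutathione S-transferases, which join glutathione to toxic compounds. The probe now named Gsta1 was at 1.32 ± 0.72 at IRI day 7, -0.05 ± 0.76 at IRI day 3 and 3.89 ± 0.28 in sham (SD, n = 4 each), that is -2.57 on day 7 (adjusted p = 0.00189) and -3.94 on day 3 (adjusted p = 1.82e-05). Gsta3 was at -2.36 on day 7 and -3.68 on day 3, and Gsta2 and Gsta5 fell by 3.49 and 3.20 on day 3 but did not pass on day 7 (adjusted p = 0.0771 and 0.0545). The probes of this family can bind transcripts of its close relatives. The files name the Gsta1 probe Gsta3, the Gsta3 probe Gsta5 and the Gsta5 probe by a locus number, while the Gsta2 probe has the same name there. The identity within the family is therefore uncertain. The carboxylesterase gene Ces1d fell by 1.96 on day 7 (adjusted p = 0.0178) and by 3.82 on day 3 (adjusted p = 6.99e-05). Akr1b10, an aldo-keto reductase gene, fell by 2.42 on day 7 (adjusted p = 0.00694) and by 3.41 on day 3 (adjusted p = 0.000142).

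The targets that rose included Gpx2, a glutathione peroxidase gene of epithelia, at 2.06 ± 0.75 at IRI day 7, 3.62 ± 0.15 at IRI day 3 and 0.76 ± 0.23 in sham (SD, n = 4 each), that is 1.30 on day 7 (adjusted p = 0.0133) and 2.86 on day 3 (adjusted p = 2.39e-05). Hmox1, the heme-degrading enzyme gene, rose on day 3 (1.35 ± 0.18 SE, adjusted p = 8.33e-05), and its difference was 0.18 on day 7 (adjusted p = 0.513), and day 7 minus day 3 was -1.17 (adjusted p = 0.00138). Gstm1 rose by 1.85 on day 3 (adjusted p = 0.00171) and was at 1.08 on day 7 (adjusted p = 0.0719). Of the carbonyl reductase genes, Cbr1 rose at both times, by 1.49 on day 7 (adjusted p = 0.0039) and 1.32 on day 3 (adjusted p = 0.00134), and Cbr3 rose by 0.78 on day 7 (adjusted p = 0.035) and was at 0.48 on day 3 (adjusted p = 0.0911). Akr1b8 was the one gene of the 137 that rose on day 3 (0.60, adjusted p = 0.0323) and fell on day 7 (-1.27, adjusted p = 0.00307) against sham, and day 7 minus day 3 was -1.86 (adjusted p = 0.000348). Slc7a11, which imports cystine for glutathione synthesis, was above background on 3 of 12 arrays and was not tested.

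Of 41 genes of glutathione synthesis, use and breakdown, 3 rose and 12 fell on day 7, and 5 rose and 22 fell on day 3, against sham. Cth, which makes cysteine from cystathionine, was at 0.84 ± 0.52 at IRI day 7, -0.32 ± 0.49 at IRI day 3 and 2.79 ± 0.34 in sham (SD, n = 4 each), a difference from sham of -1.95 on day 7 (adjusted p = 0.00189) and -3.11 on day 3 (adjusted p = 1.42e-05). Gstz1, an enzyme of tyrosine breakdown, fell by 1.46 on day 7 and by 2.80 on day 3, and Slc3a1, part of the cystine transporter of the brush border, fell by 1.46 and 2.46. Of the peroxidases of the endoplasmic reticulum, Gpx7 rose by 2.18 on day 3 (adjusted p = 0.00245) and was at 0.69 on day 7 (adjusted p = 0.344). Gpx8 rose at both times, by 0.93 on day 7 (adjusted p = 0.00646) and 1.64 on day 3 (adjusted p = 3.34e-05). Glrx, which encodes glutaredoxin, rose by 0.89 on day 7 and by 1.82 on day 3 (adjusted p = 0.00422 and 9.31e-06). Ptges, a prostaglandin E synthase gene, rose by 1.33 on day 7 (adjusted p = 0.00505) and stood at -0.36 on day 3.

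Gss had the same order of levels as Gclm, and it was singled out after its values were seen. It was at -0.89 ± 0.16 at IRI day 7, -0.19 ± 0.12 at IRI day 3 and 0.11 ± 0.52 in sham (SD, n = 4 each). It fell on day 7 against sham (-1.01 ± 0.22 SE, adjusted p = 0.0112) and against day 3 (-0.71 ± 0.22 SE, adjusted p = 0.0335), and day 3 minus sham was -0.30 (adjusted p = 0.272). Besides Gss, the other 3 genes of the 137 that passed as lower than sham on day 7 and did not pass on day 3 were Mgst1, Nadk and Fundc2, and the 3 that passed as higher only on day 7 were Cbr3, Me3 and Ptges, all named after their values were seen. Of these, Gss, Mgst1, Nadk, Me3 and Ptges also passed between day 7 and day 3.

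In the thioredoxin and peroxiredoxin system 2 of 20 genes rose and 4 fell on day 7, and 6 rose and 7 fell on day 3, against sham. Of the peroxiredoxins of the kind that sulfiredoxin restores, Prdx2 and Prdx4 rose at both times. Prdx1, which is on the list of NRF2 targets, was at -0.19 on day 7 and 0.16 on day 3, and Prdx3 was at -0.27 and -0.15, and neither passed. Prdx2 was at 3.07 ± 0.21 at IRI day 7, 3.41 ± 0.14 at IRI day 3 and 2.09 ± 0.38 in sham (SD, n = 4 each), a rise of 0.98 (adjusted p = 0.00612) and 1.32 (adjusted p = 0.000163). Prdx4 rose by 1.91 on day 7 (adjusted p = 0.0376) and by 3.39 on day 3 (adjusted p = 0.000406), with 2 of 4 sham arrays well above background. The methionine sulfoxide reductase genes Msra and Msrb1 fell on day 7 by 1.67 and 1.29 and on day 3 by 2.39 and 1.94, and Selenop, which encodes the selenium carrier, fell by 1.34 and 2.47.

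Of 13 genes of NADPH supply, 1 rose and 3 fell on day 7, and 4 rose and 4 fell on day 3, against sham. Aldh1l1, a folate enzyme that makes NADPH, was at -1.14 on day 7 (adjusted p = 0.00469) and -2.27 on day 3 (adjusted p = 1.18e-05), and Mthfd1, also of the folate cycle, fell by 0.98 and 1.54. Rpia and Pgls of the pentose phosphate pathway rose on day 3 by 0.82 (adjusted p = 0.000275) and 0.94 (adjusted p = 0.00155), and were at 0.20 and 0.54 on day 7, where neither passed. Me3, a mitochondrial relative of Me1, rose by 1.16 on day 7 (adjusted p = 0.0211), when the difference of Me1 was -2.04.

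Of 22 regulators and partners of NRF2, 2 rose and 1 fell on day 7, and 7 rose and 3 fell on day 3, against sham. Mafg, which encodes a small MAF partner of NRF2, rose at both times, by 0.72 on day 7 (adjusted p = 0.0212) and 0.73 on day 3 (adjusted p = 0.00594). Rbx1, part of the ubiquitin ligase that acts on NRF2 with KEAP1, rose by 1.22 on day 3 (adjusted p = 4.7e-05), and Palb2, Cebpb, Pgam5, Dpp3 and Prkcd were the others that rose. Nfe2l1, the relative of Nfe2l2, fell by 0.72 on day 3 (adjusted p = 0.0184), as did Amer1 by 1.0 and Rxra by 0.66. The 3 genes that passed on day 7 were Mafg, Cebpb and, as lower, Fundc2.

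**Figure D4:**
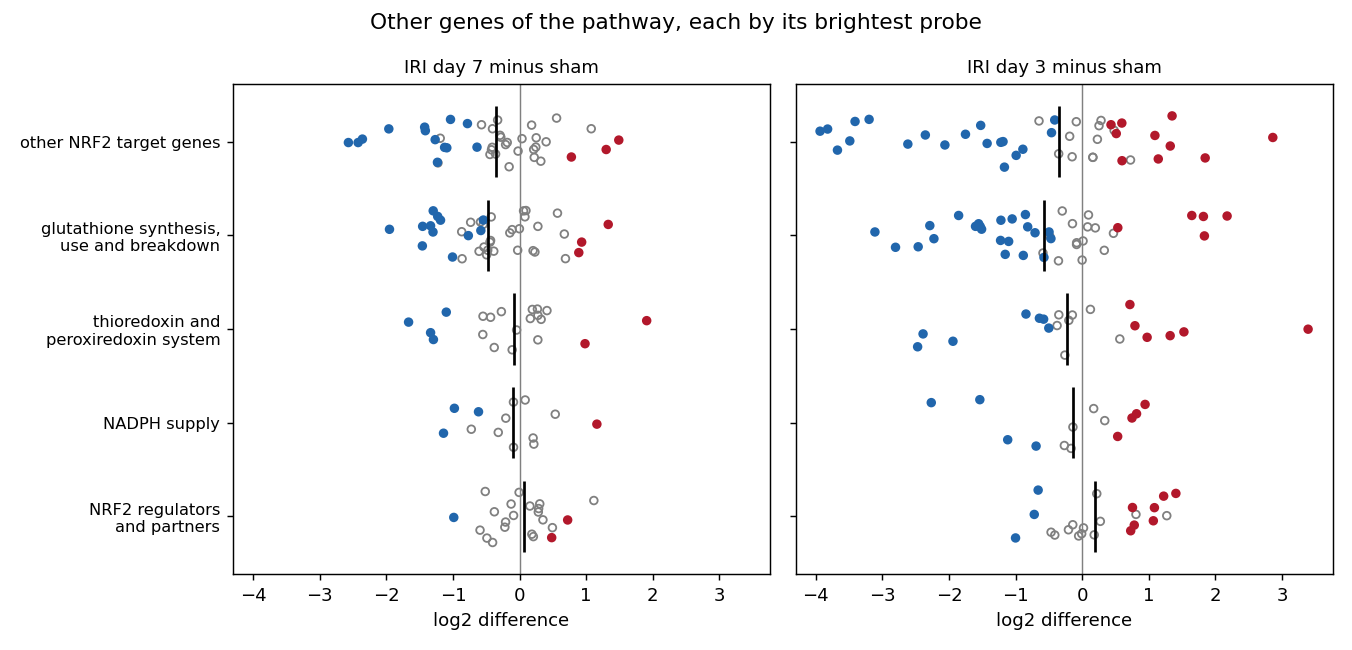
Log2 difference from sham (horizontal axis) of each tested gene of the 5 pathway lists, for IRI day 7 and IRI day 3; filled points passed an adjusted p of 0.05 in limma (red higher, blue lower), open points did not, and the vertical bar is the list median. The lists of NRF2 targets and of glutathione genes hold the most falls, and both panels use the same 4 sham kidneys.

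Markers of tubule and other cells moved over the same samples. The summed linear signal of the 15 proximal tubule markers, in units of the 75th percentile, was 208 to 410 at IRI day 7, 59.3 to 176 at IRI day 3 and 606 to 621 in sham. Of these markers 6 fell on day 7 and 13 on day 3 against sham, and 12 were higher on day 7 than on day 3. The sum of 8 thick ascending limb and distal tubule markers was 50 to 63.5 at IRI day 7, 5.33 to 10.2 at IRI day 3 and 77.1 to 91.2 in sham. Of these 8 markers 2 rose and 1 fell on day 7 and all 8 fell on day 3 against sham, and all 8 were higher on day 7 than on day 3. Gclc and Osgin1 overlapped between the times while the sums of both lists were higher on day 7, and Gclm was lower on day 7 than on day 3. The sum of 11 injured tubule markers was 12 to 44.3 at IRI day 7, 55 to 78.1 at IRI day 3 and 5.76 to 6.71 in sham. That of 13 leukocyte markers was 19.2 to 26.5 at IRI day 7, 25.9 to 33.6 at IRI day 3 and 9.8 to 14.4 in sham, with the B cell gene Cd79b above background on no array. That of 8 fibroblast markers was 57.8 to 76.3 at IRI day 7, 78.8 to 124 at IRI day 3 and 16.5 to 28.4 in sham. Srxn1 was higher over the groups in which the sums of the last 3 lists were higher. Of the other lists, 1 of 10 collecting duct, 4 of 7 endothelial and 2 of 6 podocyte markers fell on day 7, and 10, 5 and 4 of them fell on day 3. The endothelial sum was 6.87 to 14.7 at IRI day 7, 6.61 to 8.8 at IRI day 3 and 16.7 to 21.3 in sham. Like Gclc and Osgin1, it was below sham at both times and overlapped between them. The podocyte sum was 5.93 to 12.8, 4.22 to 5.39 and 14.7 to 19 in the same order. The collecting duct sum was 39.5 to 54, 7.31 to 12.2 and 25.4 to 48.7. The part of these cell types in the signals of the members was not tested.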

How the data were processed

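Each left kidney gave total RNA that was labelled with Cy3, per the labels' protocols, which name a kit for labelling DNA. Agilent Feature Extraction 9.5.1.1 read the arrays and probes were placed on the rat build rn4, per the file headers. The processed signal is an intensity corrected for background within the array, per the file headers, and the mean signal and local background are uncorrected intensities, per the file headers. Flags of 0 or 1 mark spots well above background and outliers, per the file headers. The deposited value table of the authors holds log2 values centred on each probe.

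Here log2 of the processed signal minus the 75th percentile of the array was used, with outlier spots left out and the spots of a probe averaged. A probe was tested if any group had it well above background on all its 4 arrays (21071 probes). The limma package 3.58.1 (lmFit, eBayes; R 4.3.3) gave 1 mean per group, with two-sided p values adjusted by Benjamini and Hochberg over all tested probes at a threshold of 0.05. In data simulated for day 3 against sham over 20964 probes, of which 200 were changed, 45% of the changes of 1 log2 unit and 92% of those of 2 were recovered. In the measured day 3 comparison 11903 probes passed. The cut-off of the adjustment depends on the share of changed probes, so these recovery shares do not carry over to the measured data. Gene names came from the RefSeq table of GRCr8 by accession (17998 probes), symbol (2359) or synonym (615), and otherwise from the files. Exon and UTR positions of the probes were not analysed here.

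The members and lists were chosen with earlier results of these data known. From each list and comparison the text could name the 3 passing genes with the largest rise and the largest fall, and all regulators that passed on day 3. Marker lists of 9 cell types or tissues were also read, those of endothelium and podocytes included. The labels give 4 rats per group, and replicate numbers did not pair the arrays: correlations of deviations from the group means ran from -0.33 to 0.14 over 12 pairs. Alternatives changed the background correction, scaling, filter, outlier spots, blocks and samples.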

Additional observations from a re-analysis of the deposited data

Results flagged for a closer look

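In sham kidneys the Gclc signal of replicate 3 stood apart, with a gap to the nearest array of 0.929 of the range of the group. Before scaling, this array had the lowest 75th percentile of all 12 arrays (224.7). Its share of spots well above background was also the lowest (64.98%). In IRI day 7 kidneys replicate 2 stood apart for the dimmer Txnrd1 probe, with a gap of 0.89 of the range, and without it day 7 minus sham was -0.41, against -0.13 with it. These were 2 of 36 groups examined, and chance marks about 1 in 20.

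The differences from sham on day 7 and on day 3 were unequal, by the limma test of day 7 against day 3, for 17 of 41 other NRF2 target genes. This held for 16 of 41 genes of glutathione synthesis, use and breakdown and 8 of 20 of the thioredoxin and peroxiredoxin system. It also held for 6 of 13 genes of NADPH supply and 4 of 22 regulators. These shares were 41.5%, 39.0%, 40.0%, 46.2% and 18.2%, beside 31.1% of all tested genes. Gsta2 was 2.26 and Gsta5 2.01 higher on day 7 than on day 3, with the same uncertainty of identity within the family, and Mgst2 was at -2.38 (adjusted p = 0.0211). Prdx5 was higher on day 7 by 1.17 (adjusted p = 0.00121), and Selenow was at -1.25 (adjusted p = 0.00434).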

How the results depend on the processing

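The 16 member differences that passed kept their sign under every scaling, filter, block and left-out replicate in which they were fitted, and within each of the 3 slides. With only probes well above background on all arrays, 12 were fitted, since the Gclm and Nqo1 probes dropped out. Within slides 1, 2 and 3, 5, 8 and 14 of the 16 moved by at least the SD within groups. Under normexp background correction the exception to the kept signs was Nqo1 between day 7 and day 3, which turned to 0.14. Gclm and Nqo1 on day 7 lie near background, where depth of signal limits them. Normexp gave 92 probes and 0 other pathway genes for day 7 against sham, 3428 and 36 for day 3 against sham, and 176 and 3 for day 7 against day 3, against 3866 and 44, 11903 and 87, and 6480 and 51. At an unadjusted p under 0.05 it gave 34, 59 and 34 of 137 pathway genes. With spots under their local background left out, normexp gave 43, 92 and 61 pathway genes at the adjusted threshold, and Gclm (-0.54) and Nqo1 (-0.49) passed as lower on day 3. The brighter Txnrd1 probe passed between the times (-0.64). Of the 16 member differences that passed in the main fit, 1 was lost in that run, Nqo1 between the times (-0.19). At most 24 spots of an array, controls left out, lay under their local background. A fit of the day 7 and sham arrays alone gave 2285 probes.

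Leaving out 1 replicate at a time gave 2293 to 3833 probes for day 7 against sham, lowest without IRI day 7 replicate 3 (2422 without replicate 1), 10404 to 11792 for day 3 against sham, and 3832 to 6832 for day 7 against day 3, where it was 3832 without IRI day 3 replicate 4, 4034 without IRI day 3 replicate 2 and 4219 without IRI day 7 replicate 4. Pathway genes ranged from 33 to 50, 77 to 85 and 32 to 52 in these comparisons, and 32 was reached without IRI day 3 replicate 2 or 4. The replicate block gave 41, 84 and 40 pathway genes, and changed no call of a member. Under total signal scaling 78.2% of all probes that passed on day 7 were higher, against 43.9%, and 59.8% of those on day 3, against 43.4%, and on day 7 the share was 55.9% by the values the authors deposited. The cause of these differences was not tested.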
